A study of Mus musculus with 18 samples.

Results

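The transcription factors of the naive pluripotent state described here are 10 genes, Klf2, Klf4, Klf5, Tbx3, Tfcp2l1, Esrrb, Prdm14, Nr0b1, Nr5a2 and Zfp42. They were chosen by name, with earlier results of these data known, as were the lists of other genes used below. Counts in these sets, set beside shares of all genes, are therefore descriptions. Every probe set that the platform annotation assigns to the 10 symbols was taken. This gave 24 of 45101 probe sets and 10 of 18193 genes. Of the 24 probe sets, 17 reached a signal of 65.8, the median of all deposited values, in all 18 arrays, 2 reached it in some arrays and 5 in none. Each gene was represented by its brightest probe set, and all 10 of these reached that signal in all 18 arrays. The study put biotin-labelled RNA from mouse embryonic stem cells on 18 Affymetrix arrays, in 6 groups of 3 that the labels call biological replicates. CGR8 embryonic stem cells were kept in GMEM with 10% serum and LIF, and plasmids were introduced by lipofection. In 4 groups the plasmid was Foxd3, CA-NFATc3, Foxd3 and CA-NFATc3 together, or a vector control. The other 2 groups were conditional knockout cells for Foxd3, Foxd3fl/fl:Cre-ERT, given tamoxifen for 2 days, or DMSO, which is 0 days of tamoxifen. Both of these groups carry the floxed alleles and the tamoxifen-inducible Cre, and the labels give them the same source name, cell line and transfection protocol as the other cells. The promoter that drives Cre, the number of clones and the time between transfection and RNA extraction were not stated in the labels.

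Mouse embryonic stem cells resemble the epiblast of the blastocyst, and their naive state is held by transcription factors that act beside the core factors Oct4 (Pou5f1), Sox2 and Nanog. LIF, through STAT3, feeds into Klf4, Tfcp2l1 and other members, Wnt signalling relieves Tcf7l1 repression of genes such as Esrrb, and Fgf and ERK signalling pushes cells toward the primed epiblast state, in which most of these factors are low and genes such as Otx2, Pou3f1 and Dnmt3b are high. Foxd3 is a forkhead factor of pluripotent and neural crest cells, and NFATc3 is a transcription factor activated by the phosphatase calcineurin. By the usual meaning of the name, CA-NFATc3 is a constitutively active form.

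RefSeq promoters of build GRCm38.p6, each 300 bases from 250 before to 50 after a gene start, were matched by symbol for 7 of the 10 genes, with 9 windows in all. Klf5, Tbx3 and Prdm14 had no window in the table. The windows were searched on both strands for TGTTTAC, a forkhead motif, GGAAA, the core bound by NFAT proteins, TTCNNNGAA, a STAT motif, AAGGTCA, a motif bound by ESRRB, and GGGCGTG, a motif of Krüppel-like factors. Of 32851 promoters in the table, 3.65% held the forkhead motif, 61.3% the NFAT core, 8.30% the STAT motif, 4.72% the ESRRB motif and 8.44% the Krüppel-like motif. The NFAT core was in 5 of the 9 windows, the Krüppel-like motif in 2 and the STAT motif in 1. The forkhead motif and the ESRRB motif were in 0 of the 9, which says only that these letters were not there. The 3 windows below belong to genes that the comparisons turn on, Klf2 and Nr0b1, which fell with CA-NFATc3, and Tfcp2l1, which fell with the Foxd3 label. Capitals mark the NFAT core in Klf2 and Nr0b1, and the Krüppel-like motif in Tfcp2l1, read on either strand. They lie at chr8:72318812-72319111 (plus strand) for Klf2, chrX:86191525-86191824 (plus strand) for Nr0b1 and chr1:118627695-118627994 (plus strand) for Tfcp2l1.
Klf2: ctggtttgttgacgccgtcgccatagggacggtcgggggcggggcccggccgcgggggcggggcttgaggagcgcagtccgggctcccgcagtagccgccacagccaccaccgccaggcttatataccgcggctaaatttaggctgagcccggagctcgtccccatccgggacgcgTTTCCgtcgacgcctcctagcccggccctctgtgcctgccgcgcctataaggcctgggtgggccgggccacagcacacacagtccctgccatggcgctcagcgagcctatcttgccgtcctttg
Nr0b1: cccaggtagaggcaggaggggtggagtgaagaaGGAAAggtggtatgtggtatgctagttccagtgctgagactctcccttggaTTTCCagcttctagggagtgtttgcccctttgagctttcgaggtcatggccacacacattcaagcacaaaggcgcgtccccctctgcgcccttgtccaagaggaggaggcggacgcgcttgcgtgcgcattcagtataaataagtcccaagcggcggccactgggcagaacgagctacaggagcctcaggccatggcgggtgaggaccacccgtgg
Tfcp2l1: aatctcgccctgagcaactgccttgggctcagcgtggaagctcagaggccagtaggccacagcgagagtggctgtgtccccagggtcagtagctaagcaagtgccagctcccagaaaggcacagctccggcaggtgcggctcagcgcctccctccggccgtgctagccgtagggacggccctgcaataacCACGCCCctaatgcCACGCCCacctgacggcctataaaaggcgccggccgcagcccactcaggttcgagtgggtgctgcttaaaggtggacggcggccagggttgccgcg
The Klf2 window held 1 NFAT core, at base -74 from the gene start, and the Nr0b1 window held 2, at -217 and -166. The Tfcp2l1 window held 2 Krüppel-like motifs, at -60 and -46, and no NFAT core. The Esrrb window held 3 NFAT cores and the windows of Nr5a2 held 2 and 3, and neither gene was called with CA-NFATc3. In a window of Esrrb, 1 STAT motif stood at -178 and overlapped an NFAT core at -173. These matches describe letters and were not tested as binding sites.

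All arrays had been scaled to the same trimmed mean signal, 500. Median signals ran between 55.2 and 67.1 for transfected arrays and between 73.0 and 80.7 for knockout arrays, and replicates correlated at r = 0.981 to 0.988 across probe sets. The embryonic stem cell markers Pou5f1, Sox2, Nanog and others were above the filter in every group. The Foxd3 probe set went against its label in the transfected cells. Its signal was 232, 244 and 236 in arrays labelled Foxd3 and 277, 210.2 and 214 in arrays labelled Foxd3 and CA-NFATc3, against 507, 419 and 404 in vector arrays, a log2 difference of -0.81 ± 0.13 (adjusted p = 0.00169) for Foxd3 against vector. With tamoxifen it was 65.1, 9.55 and 19.7, against 249, 204 and 205 with DMSO. Whether the plasmid's transcript, or the exons left after deletion, hold the bases this probe set reads was not stated in the labels. An exchanged label and a plasmid transcript that this probe set does not read cannot be told apart. The brightest Nfatc3 probe set had 1719, 1795 and 1681 in arrays labelled CA-NFATc3 and 1606, 1591 and 1546 in vector arrays, a change of 0.13 ± 0.06 (adjusted p = 0.352), which did not pass. Directions below are therefore those of the labels, and with Foxd3, with CA-NFATc3 and with both plasmids stand for arrays labelled so.

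The 10 genes differed in how far they moved, and the vector arrays had the highest group mean in all 10. In the plot of signals by array, Tbx3 splits the transfected groups into 2 levels by the Foxd3 label, and Nr0b1 stands lower with CA-NFATc3 alone than in the other transfected groups. The changes below are log2 differences of signal + 32 with the SE of a limma fit, and called genes are those whose adjusted p, over all genes tested, was under 0.05. RNA came from whole cultures, so fewer cells that express a gene and less RNA per cell cannot be told apart.

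**Figure D1:**
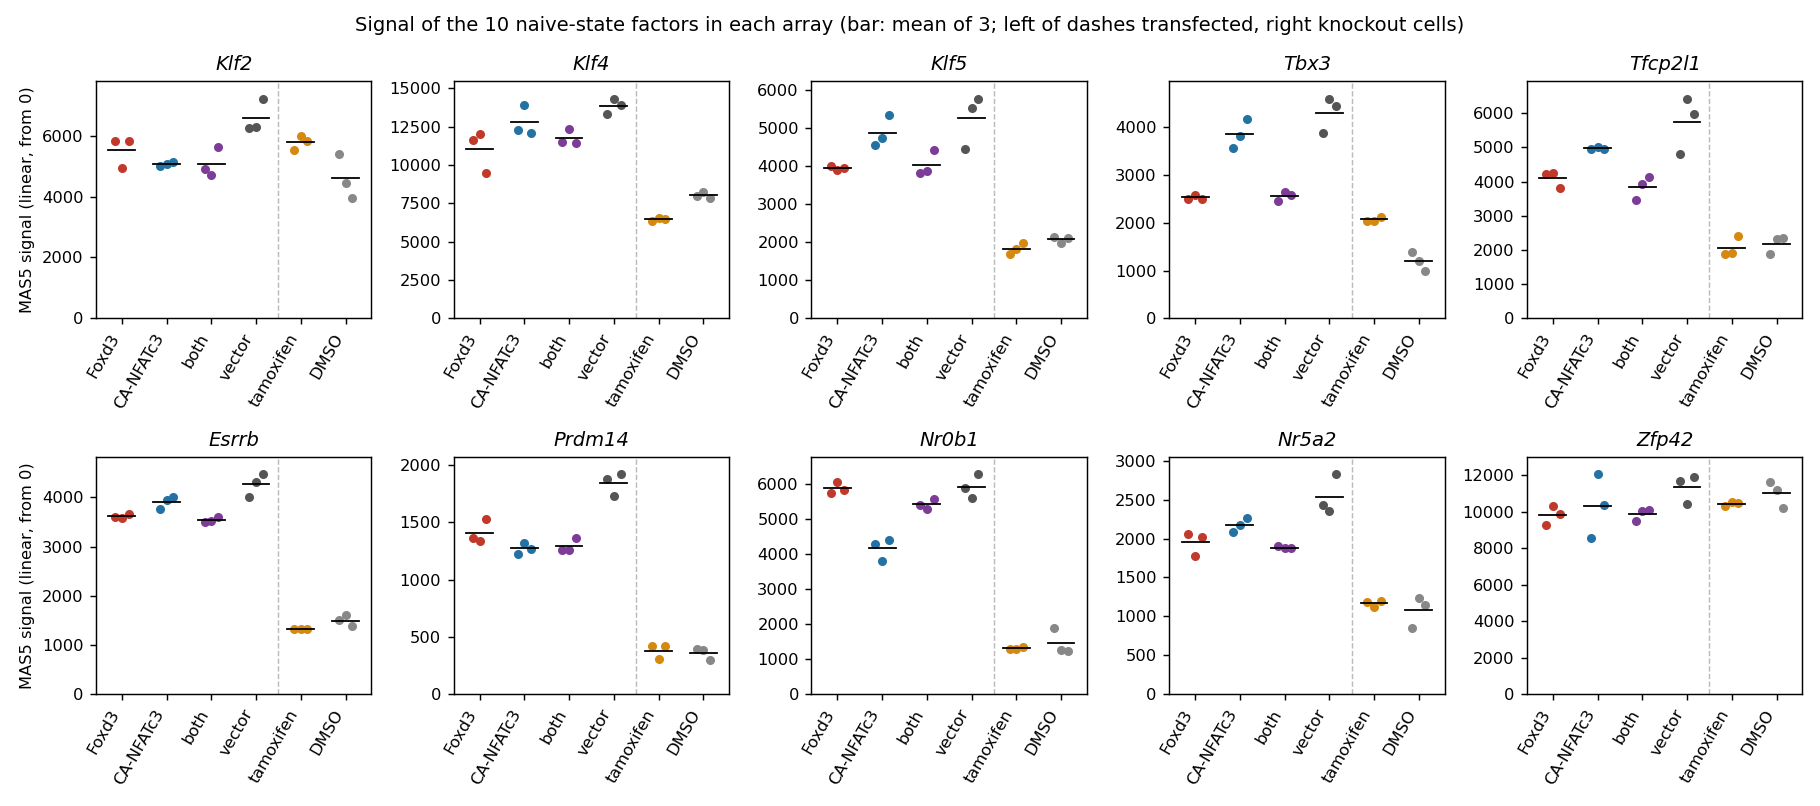
MAS5 signal (linear scale, each panel with its own axis from 0) of the 10 genes in every array, by group, with points for arrays and bars for the group mean (n = 3). Tbx3 lies between 2467 and 2648 in all 6 arrays with the Foxd3 label and between 3574 and 4603 in the other 6 transfected arrays.

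Arrays labelled Foxd3 against vector arrays compare, if the labels hold, cells given the Foxd3 plasmid with cells given the vector control. In this comparison 7 of the 10 genes fell and 0 rose, where 2.88% of 11609 genes were called in either direction and 1.17% were lower. The 3 arrays labelled Foxd3 lay below the 3 vector arrays for 9 of the 10 genes, where this held for 10.7% of all genes. The median of the 10 log2 changes was -0.35, against -0.01 over all genes tested.

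Tbx3, a T-box factor that supports self-renewal downstream of LIF and PI3K signalling, moved most. Its signal was 2509, 2585 and 2510.2 with Foxd3, against 3875, 4603 and 4441 with vector. The arrays did not overlap, and the change was -0.75 ± 0.08 (adjusted p = 2.96e-05), so that on this scale the signal fell by 40.7%. A second Tbx3 probe set, 1437479_x_at, had 1183, 1247 and 1224 with Foxd3 and 2119, 2220.2 and 2205 with vector. It changed by -0.82 ± 0.07 (adjusted p = 4.95e-06) in the fit over all 23595 probe sets tested, of which 1.71% were called.

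Of the 3 Krüppel-like factors, which share a zinc-finger DNA-binding domain and overlap in function, Klf4 and Klf5 fell and Klf2 did not pass the test. Klf4, an LIF and STAT3 target, had signals of 11622, 12016 and 9498 with Foxd3 and 13350.0, 14331 and 13921 with vector. Klf5, which the trophectoderm expresses too, had 4002, 3901 and 3953 with Foxd3 and 4459, 5515 and 5767 with vector. Neither gene's arrays overlapped, and the changes were -0.33 ± 0.08 (adjusted p = 0.0357) for Klf4 and -0.40 ± 0.09 (adjusted p = 0.0286) for Klf5. Klf2, whose protein is destabilised by ERK signalling, had 5806, 4921 and 5825 with Foxd3 and 6237, 6295 and 7210.1 with vector. Its arrays did not overlap either, yet the change of -0.25 ± 0.08 (adjusted p = 0.136) missed the threshold, with a 95% interval of -0.43 to -0.08. A fit with the replicate number as a block called Klf2, at an adjusted p of 0.0225.

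Tfcp2l1, a CP2 family factor and STAT3 target, fell in the same comparison, with signals of 4227, 4253 and 3828 under the Foxd3 label and 4805, 6429 and 5979 in vector arrays. The change was -0.47 ± 0.09 (adjusted p = 0.0110), and the vector arrays spread more widely than the Foxd3 arrays. Prdm14, which represses Dnmt3b and Fgf receptor signalling in these cells, had 1367, 1335 and 1526 with Foxd3, against 1876, 1732 and 1919 with vector, a change of -0.38 ± 0.08 (adjusted p = 0.0122) with no overlap.

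Among the 3 nuclear receptors and the zinc-finger gene Zfp42, Nr5a2 and Esrrb fell. Nr5a2, a receptor that can drive Pou5f1, had signals of 2059.8, 1781 and 2026 with Foxd3 and 2437, 2358 and 2826 with vector, a change of -0.37 ± 0.08 (adjusted p = 0.0181). Esrrb, an orphan receptor repressed by Tcf7l1, had 3607, 3576 and 3662 with Foxd3 and 4012, 4305 and 4467 with vector. Its arrays did not overlap, and its change of -0.23 ± 0.06 (adjusted p = 0.0479) was the smallest of the 7. Nr0b1, an orphan receptor without the usual DNA-binding domain that acts mainly as a corepressor, had 5733, 6066 and 5825 with Foxd3, inside the vector values of 5897, 5612 and 6277, and a change of -0.01 ± 0.07 (adjusted p = 0.962). Zfp42 (Rex1), a widely used reporter of the naive state, had 9274, 10330.3 and 9863 with Foxd3 and 11702, 10432 and 11911 with vector. The Zfp42 change of -0.21 ± 0.10 (adjusted p = 0.342) did not pass, with a 95% interval of -0.41 to -0.0038.

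The other 6 further probe sets tested, all of genes called in this comparison, had the same sign and did not pass. Their changes were -0.36 ± 0.09 for 1417395_at of Klf4, -0.45 ± 0.18 for 1451739_at of Klf5, -0.25 ± 0.19 and -0.07 ± 0.16 for 1441921_x_at and 1422986_at of Esrrb and -0.38 ± 0.12 and -0.29 ± 0.10 for 1456521_at and 1449706_s_at of Nr5a2, with adjusted p of 0.0765 to 0.921. The arrays overlapped for 1451739_at of Klf5 and for both of Esrrb and did not for the other 3. In that fit the brightest probe sets of Klf4 and Esrrb were not called either.

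In the fit without a replicate block, the calls differed in how much they rested on single arrays. Tbx3 was called with any 1 of the 6 arrays left out. Klf5 and Esrrb lost their calls without any 1 of Foxd3 replicates 1, 2 or 3, or vector replicates 2 or 3, with adjusted p of 0.0676 to 0.151 for Klf5 and 0.116 to 0.206 for Esrrb. Klf4 lost its call without Foxd3 replicate 3 or any 1 vector array (0.0505 to 0.173). Tfcp2l1 lost it without Foxd3 replicate 3 or vector replicate 2 or 3 (0.0618 to 0.0718). Prdm14 lost it without Foxd3 replicate 1 or 2 or vector replicate 3 (0.0536 to 0.0738), and Nr5a2 without Foxd3 replicate 2 or 3 or vector replicate 3 (0.0520 to 0.113). The count of 7 became 4 without Foxd3 replicate 1, 3 without Foxd3 replicate 2 or vector replicate 2, 2 without Foxd3 replicate 3, 1 without vector replicate 3 and 6 without vector replicate 1. Without a variance trend 2 genes were called, Tbx3 and Prdm14, and with the mean of a gene's probe sets 4, without Klf5, Tfcp2l1 and Esrrb. Klf4 and Esrrb also lost their calls with no filter, in a fit of these 6 arrays alone and in the fit over all probe sets (0.0505 to 0.0985), Esrrb after quantile normalization (0.0644) and Prdm14 with all 18 arrays in 1 fit (0.0551). Every member kept the sign of its called change under each of these.

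Genes around the network were described from lists by the same fit. Of 8 tested genes of the primed epiblast, 6 rose and 0 fell with Foxd3 (median 1.11), including Sall2 at 1.41 ± 0.19 (adjusted p = 0.000472), Pim2 at 1.28 ± 0.12 (adjusted p = 9.81e-06) and Pou3f1 at 1.24 ± 0.22 (adjusted p = 0.00502). Of 9 other markers of the naive state, 2 fell, Fbxo15 at -0.59 ± 0.08 (adjusted p = 0.000609) and Tfap2c at -0.39 ± 0.10 (adjusted p = 0.0477). Of the 6 core factors, Lin28a rose by 0.50 ± 0.09 (adjusted p = 0.00502), while Pou5f1 at 0.0076 ± 0.08 (adjusted p = 0.982), Sox2 at -0.11 ± 0.06 (adjusted p = 0.464) and Nanog at -0.15 ± 0.09 (adjusted p = 0.485) missed the threshold. Of 6 Wnt pathway genes only Tcf7l1 passed, at 0.43 ± 0.10 (adjusted p = 0.0297). Over all genes tested by limma in this comparison, 1635 of 11609 were at an unadjusted p under 0.05. By limma, 0 of 8 LIF and STAT3 pathway genes, 0 of 10 Fgf and ERK genes, 0 of 13 other Klf genes and 0 of 5 relatives of the other members were called, with 0, 3, 2 and 1 of them at an unadjusted p under 0.05.

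Of markers of other cell types, 0 of 8 tested trophectoderm genes, 1 of 6 primitive endoderm genes, Col4a1 (0.70 ± 0.13, adjusted p = 0.00688), and 0 of 4 fibroblast genes were called by limma, with 1, 2 and 1 at an unadjusted p under 0.05. Summed signals of 10 trophectoderm genes were 1094 to 1251 with Foxd3 and 959.9 to 1159.8 with vector. For 8 primitive endoderm genes they were 1272 to 1497 with Foxd3 and 1024 to 1428 with vector, and for 7 fibroblast genes 535 to 598 with Foxd3 and 421 to 486 with vector. Cdx2, Elf5, Gata3, Sox17, Pdgfra, Col1a1, Col3a1, Postn and Dcn stayed under the filter in both groups. The part of these markers in the members' changes was not tested.

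Arrays labelled CA-NFATc3 were compared with the same 3 vector arrays, so the comparisons against vector share their controls. Here 3 of the 10 genes fell, Prdm14, Nr0b1 and Klf2, and 0 rose, where 5.86% of all genes were called and 1.24% were lower. Nr0b1 had signals of 4274, 3814 and 4402 with CA-NFATc3, all below the vector values of 5897, 5612 and 6277, and changed by -0.51 ± 0.07 (adjusted p = 0.000139). Prdm14 had 1226, 1321 and 1271 with CA-NFATc3, against 1876, 1732 and 1919 with vector, a change of -0.52 ± 0.08 (adjusted p = 0.000437). Both were lower in every CA-NFATc3 array. Klf2 had 4997, 5062 and 5132 with CA-NFATc3, against 6237, 6295 and 7210.1 with vector. The CA-NFATc3 arrays of Klf2 were close together and below all vector arrays, and the change was -0.37 ± 0.08 (adjusted p = 0.0116), lost without vector replicate 3 (0.0802) and without a variance trend (0.0511).

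The other 7 genes had changes of -0.22 to -0.10 that did not pass. Groups were apart for 5 of the 10 genes, all lower, where 8.34% of all genes were. These were the 3 called genes, Esrrb, with 3753, 3941 and 4009.9 in CA-NFATc3 arrays and 4012, 4305 and 4467 in vector arrays, and Nr5a2, with 2086, 2172 and 2260.3 in CA-NFATc3 arrays and 2437, 2358 and 2826 in vector arrays. Tbx3 had 3574, 3818 and 4186 with CA-NFATc3, overlapping vector, and a change of -0.16 ± 0.08 (adjusted p = 0.339). Its second probe set, 1437479_x_at, passed, with -0.26 ± 0.07 (adjusted p = 0.0406), where 3.57% of probe sets were called. Tfcp2l1 changed by -0.19 ± 0.09 (adjusted p = 0.343) and was called, at 0.0378, only without vector replicate 1. Klf4, Klf5 and Zfp42 overlapped vector, with changes of -0.12 ± 0.08, -0.10 ± 0.09 and -0.14 ± 0.10. The other 6 further probe sets did not pass (adjusted p of 0.317 or more). They changed by -0.21 ± 0.09 for 1417395_at of Klf4, -0.15 ± 0.18 for 1451739_at of Klf5, -0.07 ± 0.19 and -0.15 ± 0.16 for 1441921_x_at and 1422986_at of Esrrb and 0.02 ± 0.12 and -0.24 ± 0.10 for 1456521_at and 1449706_s_at of Nr5a2, so that 1456521_at of Nr5a2 had the opposite sign to the brightest one. The median of the 10 changes was -0.17, against -0.0050 over all genes.

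With CA-NFATc3, 3 of 10 Fgf and ERK genes rose, the early response gene Egr1 (1.68 ± 0.45, adjusted p = 0.0356), the receptor Fgfr2 (1.19 ± 0.15, adjusted p = 9.78e-05) and the phosphatase Dusp6 (0.63 ± 0.09, adjusted p = 0.000231). In the LIF list of 8, Pim1 fell (-0.36 ± 0.09, adjusted p = 0.0236), in the Wnt list of 6 Tcf7l1 fell (-0.57 ± 0.10, adjusted p = 0.00197), and of 9 other naive markers Dppa2 fell (-0.50 ± 0.07, adjusted p = 0.000195). Of 8 primed epiblast genes Pou3f1 (1.19 ± 0.22, adjusted p = 0.00291) and Dnmt3b (0.68 ± 0.16, adjusted p = 0.0189) rose. Among 13 other Klf genes Klf12 fell (-0.61 ± 0.12, adjusted p = 0.00546) and Klf7 rose (0.54 ± 0.13, adjusted p = 0.0179). The core factors gave 0 calls of 6 by limma, with 0 at an unadjusted p under 0.05, and Pou5f1, Sox2 and Nanog changed by -0.15 ± 0.08, -0.07 ± 0.06 and -0.16 ± 0.09. Relatives of the other members gave 0 of 5, also with 0 at that unadjusted p. Over all genes, 1866 of 11609 were at that unadjusted p.

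Genes of extraembryonic cells moved beside the members in these arrays. Of 8 tested trophectoderm markers 4 rose, with Krt19 at 2.29 ± 0.26 (adjusted p = 3.72e-05), Elf5 at 2.06 ± 0.25 (adjusted p = 6.74e-05) and Eomes at 1.97 ± 0.20 (adjusted p = 9.96e-06), and of 6 primitive endoderm markers 3 rose, Col4a1 at 2.97 ± 0.13 (adjusted p = 1.08e-09), Sox17 at 1.47 ± 0.25 (adjusted p = 0.00152) and Dab2 at 1.20 ± 0.18 (adjusted p = 0.000596). Of 4 fibroblast markers Col3a1 rose, at 2.32 ± 0.22 (adjusted p = 5.94e-06). Elf5, Sox17 and Col3a1 were under the filter in all 3 vector arrays, so the size of their changes rests on the added 32. Elf5 was also under it in all arrays with Foxd3 or both plasmids. It was thus tested only through the CA-NFATc3 arrays in which it was high, and its call is a description. Summed trophectoderm signals were 2051 to 2719 with CA-NFATc3, against 959.9 to 1159.8 with vector, with Cdx2 and Gata3 under the filter in both groups. Summed primitive endoderm signals were 3522 to 4968 with CA-NFATc3 and 1024 to 1428 with vector. The 5 embryonic stem cell markers were Pou5f1, Sox2, Nanog, Dppa5a and Zfp42, so the member Zfp42 is part of their sum. They summed to 73678 to 77254 with CA-NFATc3 and 74815 to 84058 with vector. Their part in the fall of Prdm14, Nr0b1 and Klf2 was not tested.

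With both plasmids, 7 of the 10 genes fell against vector and 0 rose, where 4.82% of all genes were called and 1.34% were lower. All 10 genes were lower without overlap, where 9.99% of all genes were, and the median change was -0.37, against 0.0013 over all genes. Tbx3 had 2467, 2648 and 2583 with both plasmids, against 3875, 4603 and 4441 with vector, and changed by -0.74 ± 0.08 (adjusted p = 2.62e-05). Its second probe set, 1437479_x_at, changed by -0.76 ± 0.07 (adjusted p = 1.15e-05), where 2.84% of probe sets were called. Tfcp2l1 had 3451, 3937 and 4139.7 with both, against 4805, 6429 and 5979 with vector, and changed by -0.57 ± 0.09 (adjusted p = 0.00187). Prdm14, with 1256, 1259 and 1362 under both plasmids, changed by -0.50 ± 0.08 (adjusted p = 0.00102), and Nr5a2, with 1902, 1875 and 1878, by -0.42 ± 0.08 (adjusted p = 0.00561). Klf2, Klf5 and Esrrb fell by less. Klf2 had 4895, 4714 and 5621 with both plasmids and changed by -0.37 ± 0.08 (adjusted p = 0.0154). Klf5 had 3812, 3869 and 4422 with both and changed by -0.37 ± 0.09 (adjusted p = 0.0298), and Esrrb had 3506, 3526 and 3596 with both and changed by -0.26 ± 0.06 (adjusted p = 0.0175).

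Klf4, Zfp42 and Nr0b1 did not pass with both plasmids. Klf4 had 11529, 12342 and 11454 with both and 13350.0, 14331 and 13921 with vector, a change of -0.24 ± 0.08 (adjusted p = 0.122) that was called with the replicate number as a block (0.0291). Zfp42 had 9480.3, 10073 and 10115 with both, a change of -0.20 ± 0.10 (adjusted p = 0.306), and Nr0b1 had 5413, 5284 and 5584 with both, a change of -0.13 ± 0.07 (adjusted p = 0.351). Leaving out single arrays ended calls of 3 genes. Esrrb lost its call without any 1 array with both plasmids or without vector replicate 2 or 3 (0.0509 to 0.105). Klf5 lost it without replicate 1 or 2 with both plasmids or vector replicate 2 or 3 (0.0991 to 0.159), and Klf2 without replicate 1 or 2 with both plasmids or vector replicate 3 (0.0546 to 0.0973). The count of 7 became 4 without replicate 1 or 2 with both plasmids or without vector replicate 3. It was also 4 without a variance trend, where the same 3 genes were lost (0.0531 to 0.0896), and 4 with the mean of a gene's probe sets, where Klf5, Tfcp2l1 and Esrrb were (0.164 to 0.395). In a fit of the 2 groups alone Klf4 was called (0.0413) and Klf5 was not (0.0619). The further probe sets other than that of Tbx3 were lower too and did not pass (adjusted p of 0.0549 to 0.862), with changes of -0.35 ± 0.09 for 1417395_at of Klf4, -0.40 ± 0.18 for 1451739_at of Klf5, -0.26 ± 0.19 and -0.09 ± 0.16 for 1441921_x_at and 1422986_at of Esrrb and -0.33 ± 0.12 and -0.40 ± 0.10 for 1456521_at and 1449706_s_at of Nr5a2. For 1451739_at of Klf5, both of Esrrb and 1456521_at of Nr5a2 the arrays overlapped.

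In the lists, 6 of 8 primed epiblast genes rose with both plasmids (median 0.89), led by Sall2 (1.37 ± 0.19, adjusted p = 0.000346), Pou3f1 (1.24 ± 0.22, adjusted p = 0.00326) and Dnmt3b (1.01 ± 0.16, adjusted p = 0.00140). Of 9 other naive markers 3 fell, Fbxo15 (-0.67 ± 0.08, adjusted p = 0.000108), Tfap2c (-0.37 ± 0.10, adjusted p = 0.0444) and Dppa2 (-0.34 ± 0.07, adjusted p = 0.00658). Lin28a rose among 6 core factors (0.44 ± 0.09, adjusted p = 0.00865), Dusp6 among 10 Fgf and ERK genes (0.33 ± 0.09, adjusted p = 0.0376) and Klf7 among 13 other Klf genes (0.68 ± 0.13, adjusted p = 0.00494). Pou5f1, Sox2 and Nanog changed by -0.08 ± 0.08 (adjusted p = 0.667), -0.07 ± 0.06 (adjusted p = 0.642) and -0.29 ± 0.09 (adjusted p = 0.0798). The LIF list of 8, the Wnt list of 6 and the 5 relatives gave 0 calls each by limma. Each had 1 gene at an unadjusted p under 0.05, against 2011 of all 11609 genes. Of other cell types, 3 of 4 tested fibroblast markers rose, with Col1a2 at 2.63 ± 0.26 (adjusted p = 1.45e-05), Col3a1 at 1.63 ± 0.22 (adjusted p = 0.000314) and Mmp2 at 0.53 ± 0.14 (adjusted p = 0.0352), as did 2 of 6 primitive endoderm markers, Col4a1 (1.21 ± 0.13, adjusted p = 4.44e-05) and Dab2 (1.05 ± 0.18, adjusted p = 0.00278), and 1 of 8 trophectoderm markers, Krt18 (0.64 ± 0.13, adjusted p = 0.00987). Summed fibroblast signals were 1004 to 1138 with both plasmids, against 421 to 486 with vector, with Col1a1, Postn and Dcn under the filter in both groups and Col1a2 and Col3a1 in all vector arrays. Their part in the members' changes was not tested.

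**Figure D2:**
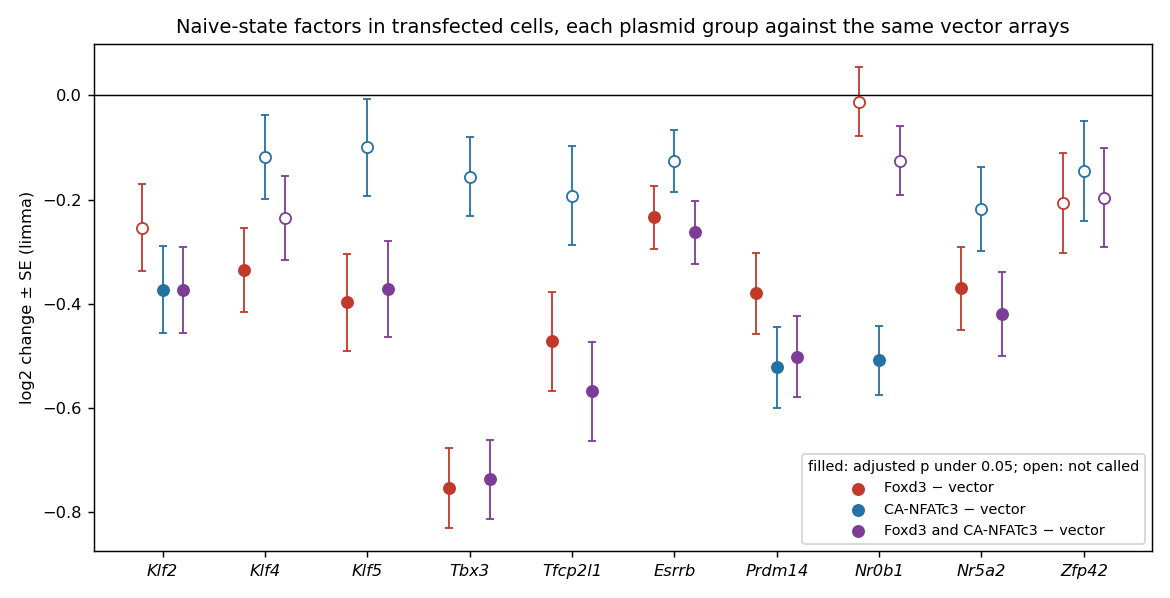
Log2 change ± SE of signal + 32 for the 10 genes in each plasmid group against the vector arrays (limma, n = 3 arrays a group), with called genes as filled points. Tbx3 is at -0.75 for Foxd3 against vector and -0.74 for both plasmids against vector, while Nr0b1 is at -0.51 for CA-NFATc3 against vector.

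A second comparison of the Foxd3 label, on arrays that leave out those of vector and of Foxd3 alone, set both plasmids against CA-NFATc3. Here 2 of the 10 genes fell, 1 rose and 7 did not pass, where 6.12% of all genes were called, 3.69% lower and 2.44% higher. Tbx3 had 2467, 2648 and 2583 with both plasmids, against 3574, 3818 and 4186 with CA-NFATc3 alone, without overlap, and changed by -0.58 ± 0.08 (adjusted p = 0.000198). Tfcp2l1 had 3451, 3937 and 4139.7 with both and 4955, 5018 and 4966 with CA-NFATc3, a change of -0.38 ± 0.09 (adjusted p = 0.0250). Nr0b1 ran the other way, with 5413, 5284 and 5584 with both, all above 4274, 3814 and 4402 with CA-NFATc3, a change of 0.38 ± 0.07 (adjusted p = 0.00193). Klf5 had 3812, 3869 and 4422 with both and 4542, 4736 and 5350.3 with CA-NFATc3. Its change of -0.27 ± 0.09 (adjusted p = 0.110) was called with the replicate number as a block (0.0190). Tfcp2l1 lost its call without any 1 array of CA-NFATc3 alone or without replicate 1 or 2 with both plasmids (0.0542 to 0.112). With the mean of a gene's probe sets Tbx3 (0.0613) and Tfcp2l1 (0.478) lost their calls, and without a variance trend Tfcp2l1 did (0.0806). The 7 genes without a call changed by -0.27 to 0.02, and the median of the 10 was -0.13, against 0.0012 over all genes. Beside Klf5 the changes without a call were -0.00036 ± 0.08 for Klf2, -0.12 ± 0.08 for Klf4, -0.14 ± 0.06 for Esrrb, 0.02 ± 0.08 for Prdm14, -0.20 ± 0.08 for Nr5a2 and -0.05 ± 0.10 for Zfp42. Groups were apart for 6 of the 10 genes, where 20.4% of all genes were. The second Tbx3 probe set, 1437479_x_at, fell too, at -0.50 ± 0.07 (adjusted p = 0.000375), where 3.92% of probe sets were called. The other further probe sets did not pass (adjusted p of 0.158 to 0.935), with changes of -0.14 ± 0.09 for 1417395_at of Klf4, -0.24 ± 0.18 for 1451739_at of Klf5, -0.18 ± 0.19 and 0.06 ± 0.16 for 1441921_x_at and 1422986_at of Esrrb and -0.36 ± 0.12 and -0.15 ± 0.10 for 1456521_at and 1449706_s_at of Nr5a2.

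Around them, 4 of 8 primed epiblast genes rose, with Dnmt3a at 1.15 ± 0.20 (adjusted p = 0.00181), and 3 of 9 other naive markers fell, Gbx2 (-0.85 ± 0.21, adjusted p = 0.0254), Fbxo15 (-0.70 ± 0.08, adjusted p = 4.99e-05) and Tfap2c (-0.48 ± 0.10, adjusted p = 0.00681). The Fgf pathway genes Egr1 (-1.71 ± 0.45, adjusted p = 0.0303) and Fgfr2 (-0.78 ± 0.15, adjusted p = 0.00434) fell, 2 of 10 in that list, and Tcf7l1 rose (0.46 ± 0.10, adjusted p = 0.00979), 1 of 6 in the Wnt list. Of the core factors 1 of 6 rose, Lin28a (0.59 ± 0.09, adjusted p = 0.000605), and Pou5f1, Sox2 and Nanog did not pass (0.07 ± 0.08, 0.0032 ± 0.06 and -0.13 ± 0.09). By limma 0 of 8 LIF genes, 0 of 13 other Klf genes and 0 of 5 relatives were called. At an unadjusted p under 0.05 there were 0, 2 and 1 of them, against 2028 of all 11609 genes. In the same arrays 3 of 8 trophectoderm markers fell, Elf5 (-2.40 ± 0.25, adjusted p = 2.01e-05) most, and 3 of 6 primitive endoderm markers, Col4a1 (-1.75 ± 0.13, adjusted p = 9.21e-07) most. Summed trophectoderm signals were 1311 to 1470.5 with both plasmids and 2051 to 2719 with CA-NFATc3 alone, and primitive endoderm sums were 1637 to 1725 with both and 3522 to 4968 with CA-NFATc3 alone. Of 4 fibroblast markers Col1a2 rose (2.07 ± 0.26, adjusted p = 0.000113) and lay under the filter in all CA-NFATc3 arrays. Elf5 was under the filter in all arrays with both plasmids and was tested only through the CA-NFATc3 arrays, so its call is a description. The part of these markers in the changes of Tbx3, Tfcp2l1 and Nr0b1 was not tested.

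Both plasmids against Foxd3 alone gave 0 calls among the 10 genes by limma, where 0.327% of all genes were called. At an unadjusted p under 0.05 there were 0 of the 10, against 807 of all 11609 genes. The changes were between -0.12 for Prdm14 and 0.10 for Klf4, with 95% intervals of -0.29 to 0.04 and -0.07 to 0.27. Klf2 changed by -0.12 ± 0.08, Klf5 by 0.03 ± 0.09, Tfcp2l1 by -0.10 ± 0.09, Esrrb by -0.03 ± 0.06, Nr5a2 by -0.05 ± 0.08 and Zfp42 by 0.01 ± 0.10. Tbx3 changed by 0.02 ± 0.08, with an interval of -0.15 to 0.18. Nr0b1 was the 1 gene whose arrays did not overlap, with 5413, 5284 and 5584 with both and 5733, 6066 and 5825 with Foxd3 alone, a change of -0.11 ± 0.07 (adjusted p = 0.795), where 11.3% of all genes did not overlap. The further probe sets did not pass (adjusted p of 0.934 to 0.999), where 0.225% of probe sets were called. They changed by 0.06 ± 0.07 for 1437479_x_at of Tbx3, 0.0084 ± 0.09 for 1417395_at of Klf4, 0.06 ± 0.18 for 1451739_at of Klf5, -0.0020 ± 0.19 and -0.02 ± 0.16 for 1441921_x_at and 1422986_at of Esrrb and 0.04 ± 0.12 and -0.11 ± 0.10 for 1456521_at and 1449706_s_at of Nr5a2. In the lists Col1a2 (1.76 ± 0.26, adjusted p = 0.00364) and Col3a1 (1.52 ± 0.22, adjusted p = 0.00334) rose, 2 of 4 fibroblast markers, Col3a1 being under the filter in all 3 Foxd3 arrays, and Tcf7l1 fell (-0.53 ± 0.10, adjusted p = 0.0294), 1 of 6 Wnt genes. The other lists gave 0 calls by limma, with 0 to 3 genes each at an unadjusted p under 0.05. Pou5f1, Sox2 and Nanog changed by -0.09 ± 0.08, 0.04 ± 0.06 and -0.14 ± 0.09.

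The interaction asks whether the change with both plasmids differs from the sum of the changes with each. It was positive for all 10 genes, that is less negative than the sum. It was called for 0 of them by limma, where 0.810% of all genes were called. Among the lists the sign ran between positive for 6 of 6 core factors and for 0 of 6 primitive endoderm markers. The term adds the vector mean, and the vector arrays had the highest group mean in all 10 members. Their shared sign is therefore not independent of that group. At an unadjusted p under 0.05 there were 3 of the 10 members, against 985 of all 11609 genes. The median term of the members was 0.17, against 0.0083 over all genes. The largest terms were 0.40 ± 0.11 (adjusted p = 0.140) for Prdm14 and 0.39 ± 0.09 (adjusted p = 0.0732) for Nr0b1. With the replicate number as a block both passed, with adjusted p of 0.0330 for Prdm14 and 0.0186 for Nr0b1. Nr0b1 also passed after quantile normalization (0.0494) and with array weights (0.0357). The other terms were 0.25 ± 0.12 for Klf2, 0.22 ± 0.11 for Klf4, 0.13 ± 0.13 for Klf5, 0.17 ± 0.11 for Tbx3, 0.10 ± 0.13 for Tfcp2l1, 0.10 ± 0.08 for Esrrb, 0.17 ± 0.11 for Nr5a2 and 0.16 ± 0.13 for Zfp42. The further probe sets did not pass (adjusted p of 0.244 to 0.997), where 0.424% of probe sets were called. Their terms were 0.33 ± 0.10 for 1437479_x_at of Tbx3, 0.22 ± 0.13 for 1417395_at of Klf4, 0.21 ± 0.26 for 1451739_at of Klf5, 0.07 ± 0.28 and 0.13 ± 0.23 for 1441921_x_at and 1422986_at of Esrrb and 0.02 ± 0.18 and 0.14 ± 0.15 for 1456521_at and 1449706_s_at of Nr5a2. In the lists the called terms were those of Fgfr2 (-1.11 ± 0.21, adjusted p = 0.0177) and Dusp6 (-0.55 ± 0.12, adjusted p = 0.0485) among 10 Fgf and ERK genes, Elf5 (-2.10 ± 0.35, adjusted p = 0.00637) and Eomes (-1.59 ± 0.28, adjusted p = 0.00860) among 8 trophectoderm markers and Col4a1 (-2.46 ± 0.19, adjusted p = 3.48e-06) among 6 primitive endoderm markers. Elf5 reached the filter in CA-NFATc3 arrays and in none of the other transfected ones, so it was tested only through that group and its call is a description. Other lists gave 0 calls by limma, with 0 to 3 genes each at an unadjusted p under 0.05, and Pou5f1, Sox2 and Nanog had terms of 0.07 ± 0.11, 0.11 ± 0.09 and 0.02 ± 0.13.

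Tamoxifen against DMSO in the conditional knockout cells gave 2 higher and 1 lower of the 10 genes, Tbx3 and Klf2 higher and Klf4 lower. This count of 3 lies near the background, since 34.4% of 12093 genes were called, 17.5% higher and 16.9% lower. Groups were apart for 5 of the 10 genes, where 47.4% of all genes were, and the median change was -0.08, against -0.0092 over all genes.

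Tbx3 again moved most, and upward. It had 2049.9, 2039.5 and 2132 with tamoxifen, against 1391, 1202 and 997 with DMSO, and changed by 0.79 ± 0.10 (adjusted p = 0.000111). The second probe set, 1437479_x_at, had 1221, 1319.5 and 1451 with tamoxifen and 810.3, 780.0 and 642 with DMSO, a change of 0.81 ± 0.10 (adjusted p = 0.000101) where 28.3% of probe sets were called. Both Tbx3 probe sets were thus lower under the Foxd3 label and higher after tamoxifen, in comparisons that share no array. The difference between these comparisons was not tested.

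The Krüppel-like factors split. Klf2 had 5535, 5982 and 5827 with tamoxifen, all above 5389, 4454 and 3937 with DMSO, and rose by 0.34 ± 0.09 (adjusted p = 0.0133). Klf4 had 6336, 6560.4 and 6498 with tamoxifen, all below 8016, 8241 and 7828 with DMSO, a change of -0.31 ± 0.04 (adjusted p = 0.000275). The second Klf4 probe set, 1417395_at, also fell, by -0.24 ± 0.06 (adjusted p = 0.0121). Klf5 had 1703, 1819 and 1981 with tamoxifen and 2143, 1993 and 2110.4 with DMSO, without overlap, and its change of -0.18 ± 0.07 (adjusted p = 0.0621) did not pass. Its second probe set, 1451739_at, had 770.2, 721 and 802 with tamoxifen and 685, 713 and 657 with DMSO, a change of 0.15 ± 0.08 (adjusted p = 0.199) of the opposite sign, so that the probe sets of Klf5 do not give 1 direction.

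The other 6 genes did not pass either. Esrrb had 1319, 1320.5 and 1330.1 with tamoxifen, below 1504, 1607 and 1376 with DMSO in every array, and a change of -0.17 ± 0.07 (adjusted p = 0.0871). Its further probe sets took the opposite sign with overlapping arrays, at 0.03 ± 0.13 (adjusted p = 0.885) for 1441921_x_at and 0.07 ± 0.16 (adjusted p = 0.778) for 1422986_at, so that those of Esrrb do not give 1 direction either. Tfcp2l1 (-0.08 ± 0.11), Nr0b1 (-0.13 ± 0.13), Nr5a2 (0.13 ± 0.12), Prdm14 (0.07 ± 0.14) and Zfp42 (-0.07 ± 0.05) had overlapping groups. Of the further Nr5a2 probe sets, 1456521_at changed by 0.02 ± 0.09 and 1449706_s_at by -0.12 ± 0.18, also with overlap. Nr0b1 had 1289, 1291 and 1353 with tamoxifen and 1887, 1257 and 1239 with DMSO, where DMSO replicate 1 stood above the other 5 arrays. Klf2 lost its call without tamoxifen replicate 2 (0.0519) and with no variance trend (0.0734). Esrrb was called without DMSO replicate 3 (0.0327), with array weights (0.0325) or with all 18 arrays in 1 fit (0.0426), and Klf5 without tamoxifen replicate 3 (0.0375).

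**Figure D3:**
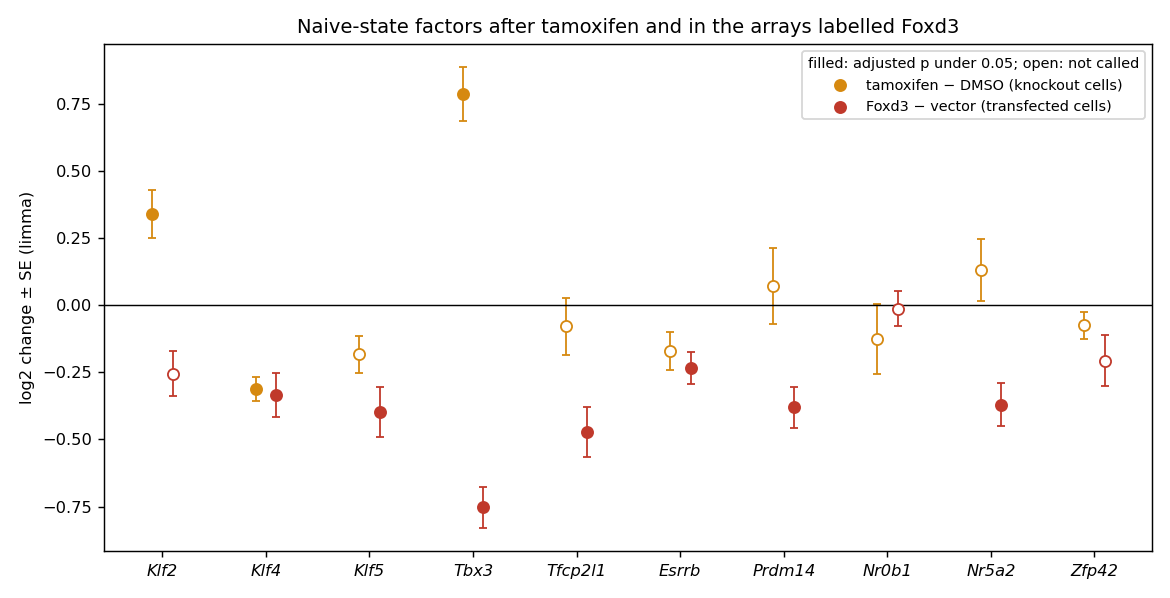
Log2 change ± SE of signal + 32 for the 10 genes with tamoxifen for 2 days against DMSO, beside Foxd3 against vector (limma, n = 3 arrays a group), with called genes as filled points. With tamoxifen, Tbx3 is at 0.79 and Klf2 at 0.34, Klf4 is at -0.31, and the other 7 genes lie between -0.18 and 0.13.

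**Figure D4:**
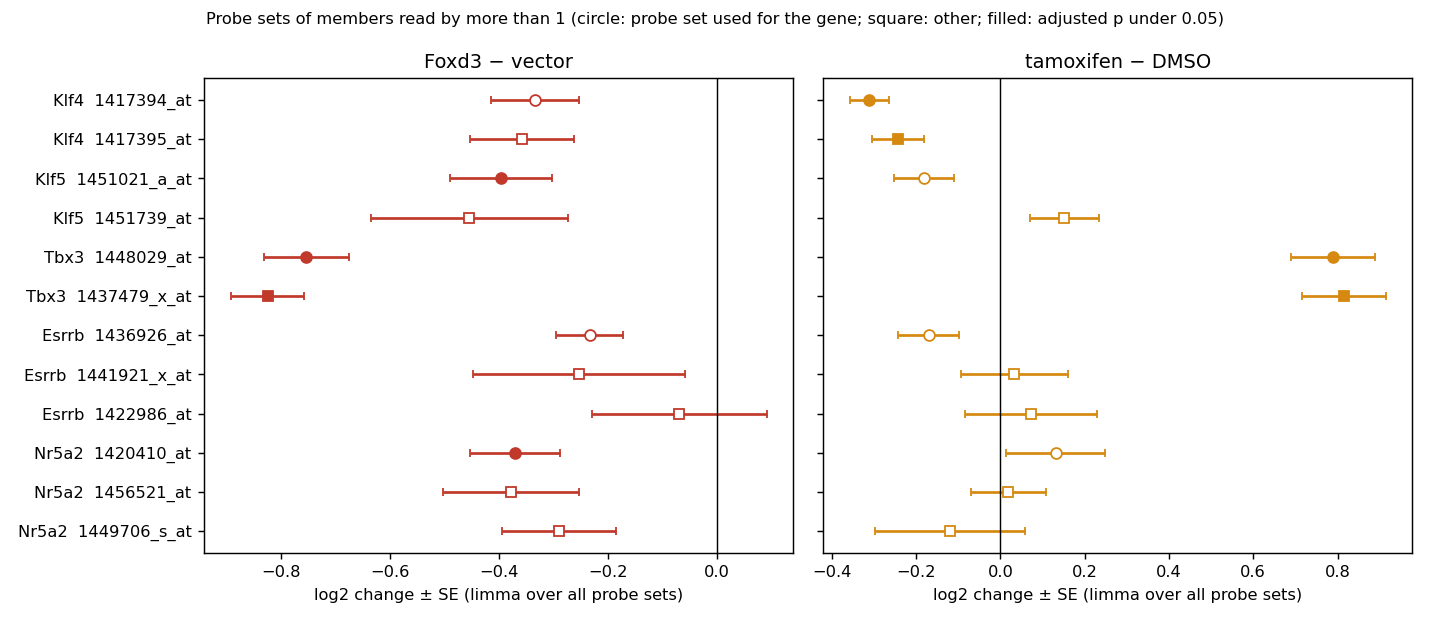
Log2 change ± SE of every tested probe set of the genes with more than 1 such probe set, in comparisons against vector and DMSO, from the fit over all probe sets. The 2 Tbx3 probe sets lie at -0.75 and -0.82 for Foxd3 against vector and at 0.79 and 0.81 for tamoxifen, while the 2 Klf5 probe sets take opposite signs with tamoxifen.

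Core factors fell in part with tamoxifen. The list counts here stand beside the 34.4% of 12093 genes called, 17.5% higher and 16.9% lower. Of 6, Lin28a (-0.58 ± 0.07, adjusted p = 0.000113), Pou5f1 (-0.19 ± 0.06, adjusted p = 0.0186) and Sox2 (-0.17 ± 0.04, adjusted p = 0.00971) fell, and Nanog did not pass (-0.12 ± 0.05, adjusted p = 0.103). Of 9 other naive markers 4 rose, Tfap2c most (1.22 ± 0.08, adjusted p = 4.32e-07), and 1 fell, Tcl1 (-0.39 ± 0.09, adjusted p = 0.00513). In the LIF list of 8, 2 rose and 4 fell, with the ligand Lif at 0.74 ± 0.17 (adjusted p = 0.00611), its receptor Lifr at -0.74 ± 0.07 (adjusted p = 6.18e-06) and the kinase Pim3 at -0.53 ± 0.04 (adjusted p = 3.63e-06). In the Fgf and ERK list of 10, 5 rose and 3 fell, with the ligand Fgf4 at -1.50 ± 0.11 (adjusted p = 9.90e-07) and Fgfr2 at 0.70 ± 0.11 (adjusted p = 0.000439). Of 9 primed epiblast genes 1 rose, Fgf5 (0.85 ± 0.17, adjusted p = 0.00285), and 4 fell, with Dnmt3a at -0.78 ± 0.11 (adjusted p = 0.000280). Of 11 other Klf genes Klf3 (0.74 ± 0.19, adjusted p = 0.0109) and Klf6 (0.65 ± 0.08, adjusted p = 0.000128) rose, and 2 fell, Klf10 (-0.66 ± 0.09, adjusted p = 0.000222) and Klf7 (-0.28 ± 0.08, adjusted p = 0.0189). In the Wnt list of 7, 2 rose and 2 fell, with Sp5 at 0.56 ± 0.16 (adjusted p = 0.0178) and Lef1 at -0.54 ± 0.16 (adjusted p = 0.0232). Among 5 relatives of the other members Prdm1 rose (0.57 ± 0.12, adjusted p = 0.00404) and Yy1 fell (-0.15 ± 0.04, adjusted p = 0.0190). The share called was 36.4% of the other Klf genes and 40% of the relatives, near that of all genes. In the other lists of this paragraph it was 50% (core factors) to 80% (Fgf and ERK genes).

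Fibroblast markers moved beside the members after tamoxifen. Of 7 tested, 6 rose by 1.10 to 3.54, with Dcn at 3.54 ± 0.18 (adjusted p = 6.37e-08), Postn at 3.49 ± 0.10 (adjusted p = 1.28e-09) and Col1a2 at 2.72 ± 0.08 (adjusted p = 1.45e-09). Their summed signal was 15185 to 17377 with tamoxifen and 2689.6 to 3087 with DMSO, with 0 of the 7 under the filter in either group. Trophectoderm sums were 8169 to 9821 with tamoxifen and 10285 to 14543 with DMSO, with 3 of 7 tested markers lower. Primitive endoderm sums were 2713 to 2875 with tamoxifen and 1726 to 2182 with DMSO, with 3 of 7 higher. Of all genes tested, 17.5% were called higher and 16.9% lower. Embryonic stem cell markers, with the member Zfp42 among them, summed to 63168 to 67257 with tamoxifen and 68159 to 70105 with DMSO. Their part in the changes of Tbx3, Klf2 and Klf4 was not tested.

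**Figure D5:**
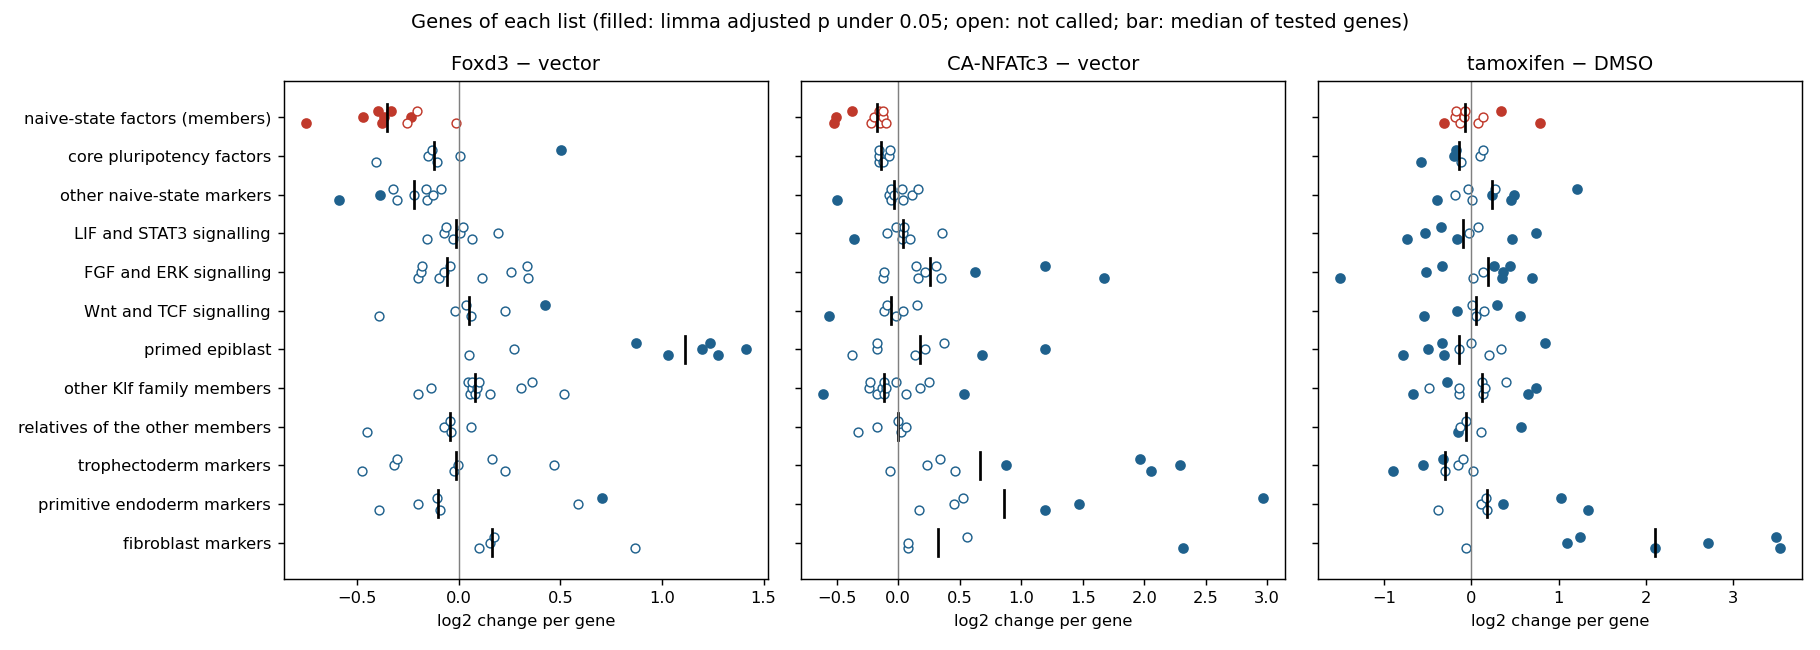
Log2 changes of the members and of the tested genes of each list, by comparison, with 1 point per gene and a bar at the median. For Foxd3 against vector the members' median is -0.35 and that of the primed epiblast genes 1.11, and with tamoxifen the fibroblast markers' median is 2.10.

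The knockout cells differed from the transfected cells in level. DMSO arrays were lower than vector arrays for 9 of the 10 genes, where 55.0% of 12678 genes were called in either direction and 22.0% were lower. The median change was -1.34, against 0.11 over all genes, or 0.0033 after quantile normalization, under which the 9 genes were called too. Prdm14 had 397, 384 and 298 with DMSO, against 1876, 1732 and 1919 with vector, and differed by -2.27 ± 0.11 (adjusted p = 1.69e-12). Nr0b1 had 1887, 1257 and 1239 with DMSO, against 5897, 5612 and 6277 with vector, and differed by -2.02 ± 0.11 (adjusted p = 6.17e-12). For Tbx3 (-1.83 ± 0.09), Esrrb (-1.49 ± 0.06), Tfcp2l1 (-1.38 ± 0.11), Klf5 (-1.31 ± 0.09) and Nr5a2 (-1.23 ± 0.10) the difference was over 1 on the log2 scale, and for Klf4 (-0.79 ± 0.07) and Klf2 (-0.52 ± 0.09) it was smaller. Zfp42 was the exception, with 11654, 11188 and 10233 in DMSO arrays and 11702, 10432 and 11911 in vector arrays, a difference of -0.04 ± 0.09 (adjusted p = 0.708) and an interval of -0.22 to 0.14.

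Of the 7 further probe sets above the filter, 6 were also lower with DMSO than with vector, with -1.91 for 1456521_at and -1.62 for 1449706_s_at of Nr5a2, -1.52 for 1437479_x_at of Tbx3, -1.08 for 1422986_at of Esrrb, -0.74 for 1417395_at of Klf4 and -0.65 for 1451739_at of Klf5, where 48.4% of probe sets were called. The exception was 1441921_x_at of Esrrb, at -0.45 ± 0.19 (adjusted p = 0.0546). Summed trophectoderm signals were 10285 to 14543 with DMSO and 959.9 to 1159.8 with vector, and fibroblast sums were 2689.6 to 3087 with DMSO and 421 to 486 with vector. Of the 6 core factors 5 were lower with DMSO than with vector, with Pou5f1 at -0.26 ± 0.07 (adjusted p = 0.00581), Sox2 at -0.42 ± 0.06 (adjusted p = 2.95e-06) and Nanog at -1.29 ± 0.08 (adjusted p = 6.99e-11). Of 9 primed epiblast genes 7 were higher, Pou3f1 most (3.44 ± 0.20, adjusted p = 2.70e-11), and 1 was lower. These list counts stand beside the 55.0% of 12678 genes called, 22.0% of them all being lower. The counts of genes called higher and called lower were 3 and 4 of 9 other naive markers, 3 and 1 of 8 LIF genes, 5 and 2 of 10 Fgf and ERK genes and 3 and 0 of 7 Wnt genes. They were 3 and 5 of 13 other Klf genes, 1 and 2 of 5 relatives of the other members, 7 and 0 of 9 trophectoderm markers, 5 and 2 of 8 primitive endoderm markers and 7 and 0 of 7 fibroblast markers. Of Wnt genes 42.9%, LIF genes 50%, relatives 60% and other Klf genes 61.5% were called, around the share of all genes. The other lists had 70% to 100% called. Genotype, vehicle, transfected plasmid and any batch differ together between these groups and cannot be told apart.

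Over all 6 groups the order of levels differed between genes. For Tbx3 it was vector (4307 ± 383), CA-NFATc3 (3859 ± 308), both plasmids (2566 ± 91.4), Foxd3 (2535 ± 43.6), tamoxifen (2074 ± 50.6) and DMSO (1197 ± 197), as mean ± SD of 3 arrays. Vector and CA-NFATc3 overlapped, as did both plasmids and Foxd3, and the other neighbours were apart. Klf5, Tfcp2l1, Esrrb and Nr5a2 shared with Tbx3 an order with vector and CA-NFATc3 above the groups with Foxd3 and those above the knockout cells. In Klf5 and Tfcp2l1 the vector and CA-NFATc3 arrays overlapped, while in Esrrb and Nr5a2 they were apart. In Klf4 the 4 transfected groups ran in overlapping steps from vector to Foxd3 and lay above DMSO and then tamoxifen.

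Prdm14 and Nr0b1 had another order. Prdm14 was highest with vector (1842 ± 98.1), and Foxd3, both plasmids and CA-NFATc3 followed, each overlapping the next, above tamoxifen (381 ± 63.1) and DMSO (359.6 ± 54.0). Nr0b1 had vector and Foxd3 overlapping at the top, then both plasmids, then CA-NFATc3, each apart from the next, above DMSO and tamoxifen, which overlapped. In Klf2 the tamoxifen arrays (5781 ± 227) ranked below vector (6581 ± 546) and overlapped Foxd3, and DMSO (4593 ± 736) ranked last. Zfp42 was the gene in which every neighbour in the order overlapped.

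The genes most like Tbx3 were found by the root mean square difference of group means over the 6 groups on the log2 scale, each gene centred on its own mean, among 12668 genes. Tbx3 had been picked for this because its range over the transfected groups (0.75) and its change with tamoxifen (0.79) were the widest of the 10. The nearest were Dusp27 (0.137), Zfp607b (0.139) and Bmp4 (0.152), against a median of 0.661 over all genes. Bmp4, a ligand of the BMP pathway, averaged 1597 with Foxd3, 2820 with CA-NFATc3, 1381 with both plasmids and 2306 with vector, and 1186 with tamoxifen and 665 with DMSO. This likeness is a description over 6 group means.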

How the data were processed

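Each deposited value is an intensity, the linear MAS5 signal of a probe set. MAS5 is named, without a version, per the submitters' processing notes. That the authors scaled every array to a trimmed mean of 500 was seen in the values. Detection calls were not used here. Probe set symbols came from GEO's platform annotation: 34945 of 45101 probe sets had 1 symbol, 932 several and 9160 none. Of several probe sets of a gene, the one with the highest mean on the log2 scale stood for it. Signals were increased by 32, log2-transformed and fitted in limma (version 3.58.1, R 4.3.3) with a variance trend in eBayes, in the 12 transfected arrays, the 6 knockout arrays or, for DMSO against vector, all 18. Genes reaching 65.8 in at least 3 arrays of a fit were tested, two-sided, with Benjamini-Hochberg adjustment over all genes tested and calls at 0.05. Other probe sets of the members were tested in a fit over all probe sets. The fits were tested on simulated data. The labels call the replicates biological, and 0 columns were without a sample; at most 0.00443% of values were identical between arrays. The number of arrays limits the precision.

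Residuals from the group means correlated at 0.104 to 0.315 in all 18 pairs of transfected arrays with equal replicate numbers. In the 36 other pairs they correlated at -0.282 to 0.0133. The replicate numbers were therefore taken to pair the samples, and blocked values stand beside results whose call they change. All other changes, adjusted p and shares of all genes came from fits without this block. Calls lost without single arrays describe those fits and not the blocked one. With the block, 783 genes were called for Foxd3 against vector (334 without), 1104 for CA-NFATc3 (680), 1122 for both plasmids (559), 1258 for both against CA-NFATc3 (711), 96 for both against Foxd3 (38) and 245 for the interaction (94).

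The rule for named genes took all members and their probe sets, of which the 17 tested are given, with Foxd3, Nfatc3, Pou5f1, Nanog, Sox2, the 3 genes most like Tbx3 and, of each list, up to 3 called genes with the largest change, not all of which are printed. Klf8 and Tcf7 are not analysed here. The members and lists were chosen with earlier results of these data known. Alternatives covered the offset, filter, quantile normalization, probe set choice, array weights, variance trend, arrays in the fit, block and leaving out each array. Promoters came from RefSeq (GRCm38.p6). Plots were made in matplotlib 3.10.9 under Python 3.11.15.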

Additional observations from a re-analysis of the deposited data

How the results depend on the processing

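Of 1470 values of the 10 genes under alternatives, 1387 kept their side of the threshold, 70 lost their call and 13 gained one. A called change reversed in 0 of them. Changes of sign in values without a call were not counted. For DMSO against vector, the highest of the 10 changes was -0.04 (Zfp42, not called) as reported and 0.06 after quantile normalization. For Foxd3 against vector, the mean of a gene's probe sets gave 4 called genes and no variance trend gave 2, in place of 7. For both plasmids against vector each of these settings gave 4 in place of 7, and for both against CA-NFATc3 the mean of probe sets gave 1 in place of 3. For the interaction, quantile normalization gave 1, array weights 1 and the replicate block 2, in place of 0. Leaving out 1 array at a time gave 1 to 6 for Foxd3 against vector, 2 to 4 for CA-NFATc3, 4 to 7 for both plasmids, 2 to 3 for both against CA-NFATc3, 0 for both against Foxd3 and for the interaction, 2 to 4 for tamoxifen and 9 for DMSO against vector. The mean of a gene's probe sets takes in others than the brightest, and the cause of these changes was not tested. Over all genes, the mean of probe sets called 220 for Foxd3 against vector (334 as reported), 341 for both plasmids (559) and 25 for both against Foxd3 (38), array weights called 552 for Foxd3 and 172 for the interaction (94), and all 18 arrays in 1 fit called 63 for both against Foxd3 and 161 for the interaction. Without single arrays, the counts went down to 158 for Foxd3, 349 for CA-NFATc3 (680), 322 for both plasmids, 385 for both against CA-NFATc3 (711), 22 for both against Foxd3 and 48 for the interaction, on fewer samples. In the knockout cells equal replicate numbers correlated at -0.0425 to 0.0152, and between vector and DMSO arrays at -0.0594 to 0.0786, so the numbers were not taken as pairs. The replicate block left 3 members called with tamoxifen and 9 for DMSO against vector. Among the transfected cells the block changed no call of a member other than those of Klf2, Klf4, Klf5, Prdm14 and Nr0b1 given above.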
